A study of Mus musculus with 30 samples.

Results

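The gasdermin gene family was followed in the terminal ileum and the lung of TL1A transgenic mice. Its members were the 7 rows of the count tables whose symbol is Gsdmc, Gsdmc2, Gsdmc3, Gsdmc4, Gsdmcl-ps, Gsdmd or Dfna5, out of 24062 gene symbols in each table, and all 7 were found in both tissues. Dfna5 is an older symbol of gasdermin E (Gsdme), and Gsdmcl-ps is a pseudogene related to gasdermin C. TL1A is encoded by Tnfsf15. It belongs to the tumour necrosis factor superfamily of cytokines and acts on lymphocytes through its receptor DR3.

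All mice were on the C57bl/6 background, and their age is not given in the sources used here. Mem mice overexpressed a membrane-restricted TL1A that lacks residues 69 to 93. Mem+Sol mice overexpressed TL1A in membrane-bound and soluble form. The control group is labelled WT, although its label also states that TL1A was expressed from the CD2 promoter, which is active in lymphocytes, so the group is called WT here only as labelled. The ileum gave 5 WT, 5 Mem and 6 Mem+Sol libraries, all from sequencing batch 3. The lung (post-caval lobe) gave 5 WT, 5 Mem and 4 Mem+Sol libraries from batches 1 and 2, with both batches in every genotype. Each group held both sexes.

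Total counts per library ran from 4295039 to 13226790 in ileum WT, 10632559 to 32653753 in ileum Mem, 12482151 to 36133187 in ileum Mem+Sol, and 22259203 to 39089383 in the lung. Levels are given in CPM, which are counts divided by the normalised library size and brought to a common scale, so that they compare libraries of unequal depth. The transgene's own gene, Tnfsf15, averaged 7.68 ± 2.07 CPM (SD, n = 5) in the lungs of WT, 22.4 ± 1.85 CPM in those of Mem (n = 5) and 77.3 ± 15.6 CPM in those of Mem+Sol (n = 4). The lung groups did not overlap. In the ileum the Tnfsf15 groups overlapped, at 1.83 to 7.25 CPM in WT, 3.64 to 5.42 CPM in Mem and 4.55 to 10.2 CPM in Mem+Sol, and neither transgenic group passed the test against WT (edgeR adjusted p = 0.832 and 0.336). The summed markers of ileal enterocytes ran from 5934 to 8595 CPM in WT ileum and from 0.439 to 0.960 CPM over all lung libraries, and those of lung epithelium from 40572 to 58369 CPM in the lung and from 1.82 to 5.44 CPM in the ileum, as the tissue labels state.

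Gasdermins are kept inactive by an autoinhibitory carboxy-terminal domain. When a protease cuts the protein, the amino-terminal domain is freed, inserts into membranes and forms pores, which can release cytokines and lead to a lytic cell death called pyroptosis. Gasdermin D is the substrate of the inflammatory caspases encoded by Casp1 and Casp4. The gasdermin C genes are expressed in intestinal epithelium and are known to be induced there during type 2 immune responses through IL-4 and IL-13.

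The 5 gasdermin C rows lie side by side on chromosome 15 (GRCm38, GENCODE M21), within 149.7 kb. Gsdmc (chr15:63775968-63808759), Gsdmc2 (chr15:63824346-63845177), Gsdmc3 (chr15:63857724-63878558) and Gsdmc4 (chr15:63891264-63912297) are protein-coding on the minus strand, and Gsdmcl-ps (chr15:63914448-63925666) is a transcribed pseudogene on the plus strand. Gsdmd (chr15:75862327-75867408, plus strand) lies 11.9 Mb away on the same chromosome, and Dfna5 (chr6:50188888-50263862, minus strand) on chromosome 6. No exon of the 7 genes overlaps an exon of another annotated gene.

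The first 90 coding bases of the 4 gasdermin C genes, each from 1 exon of the minus strand, show how close these copies are. They are written 5′ to 3′ from the start codon, and capitals mark the 11 positions that are not the same in all 4.
Gsdmc, chr15:63804503-63804592: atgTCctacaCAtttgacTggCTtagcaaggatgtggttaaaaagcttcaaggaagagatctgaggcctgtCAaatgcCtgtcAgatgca
Gsdmc2, chr15:63835854-63835943: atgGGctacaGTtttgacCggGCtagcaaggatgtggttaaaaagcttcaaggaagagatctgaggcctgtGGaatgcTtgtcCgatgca
Gsdmc3, chr15:63869208-63869297: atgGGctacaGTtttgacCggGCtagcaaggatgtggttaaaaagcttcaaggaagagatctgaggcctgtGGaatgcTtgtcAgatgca
Gsdmc4, chr15:63902841-63902930: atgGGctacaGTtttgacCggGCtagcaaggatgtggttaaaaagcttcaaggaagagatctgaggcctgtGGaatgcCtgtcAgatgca

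Within this stretch Gsdmc2 and Gsdmc3 differ at 1 base, Gsdmc3 and Gsdmc4 at 1, and Gsdmc2 and Gsdmc4 at 2, whereas Gsdmc differs from the others at 9 to 11. Over the aligned coding sequence, Gsdmc2 and Gsdmc3 are 97.1% identical, either of them and Gsdmc4 93.8%, and Gsdmc and the other 3 between 87.0 and 87.5%. Gsdmd and Dfna5 are 58.3 to 62.2% identical with each other and with the gasdermin C genes. Of all 50-base stretches of the transcript, 48.5% in Gsdmc2, 46.9% in Gsdmc3, 39.0% in Gsdmc4, 35.6% in Gsdmcl-ps and 16.4% in Gsdmc occur letter for letter in a transcript of another gene, and none in Gsdmd or Dfna5. Reads from such stretches cannot be told apart by sequence. How they were counted is not given in the sources used here, so the split of counts among the gasdermin C rows is uncertain. Gsdmc, Gsdmc2, Gsdmc3 and Gsdmc4 share their stretches mostly with each other, whereas Gsdmcl-ps shares its stretches mostly with Gsdmcl2, Gsdmcl1 and 1700065I16Rik, which are not among the 5 rows, so its level and ratio are uncertain on that account too.

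In the ileum, the gasdermin C genes rose in both transgenic genotypes. Mem against WT called 5 of 7 members at an adjusted p under 0.05, all 5 higher, where 8.06% of the 14959 genes tested were called (5.0% higher and 3.06% lower). Mem+Sol against WT called 6 of 7, the same 5 rows higher and Dfna5 lower, where 28.7% of all genes were called (16.6% higher and 12.1% lower). Of the 5 rows, Gsdmc and Gsdmcl-ps held only 4 and 15 counts over the WT libraries. They passed the filter on low counts only through the transgenic libraries, where they are high. Their calls are therefore not to be read against the shares of all genes, whereas Gsdmc2, Gsdmc3 and Gsdmc4 were well detected in WT. Mem+Sol against Mem called 0 of 7, where 2 genes in all, 0.0134%, were called. In that comparison the unadjusted p was under 0.05 for Dfna5 alone among the members, and DESeq2 called 0 as well. The share of all genes with an unadjusted p under 0.05 is not given here. Counts at that threshold, here and below, are therefore not set against all genes and show no excess. The labels do not say whether the libraries came from separate animals, so p-values here measure only the spread between these samples. These are bulk libraries, in which fewer cells of a type and less RNA per cell cannot be told apart.

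Gsdmc4 was the gasdermin C row with the most counts in the ileum. In WT ileum it stood at 169, 74.9, 108, 83.9 and 74.2 CPM in replicates 1 to 5. In Mem it stood at 609, 2105, 1647, 1709 and 2224 CPM, and in the 6 Mem+Sol libraries at 512 (lowest), 1540 (median) and 2537 CPM (highest). Every transgenic library lay above every WT library, with replicate 1 of Mem and replicates 1 and 6 of Mem+Sol at the low end. The log2 fold change was 3.92 ± 0.40 (SE) in Mem (edgeR quasi-likelihood test, Benjamini-Hochberg adjusted p = 4.9e-05) and 3.54 ± 0.39 in Mem+Sol (6.0e-05).

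Gsdmc2 stood at 52.8, 31.1, 50.8, 36.3 and 33.4 CPM in the WT replicates. It stood at 249, 1486, 1102, 1310 and 1661 CPM in the Mem replicates, and at 266 (lowest), 1191 (median) and 2041 CPM (highest) in Mem+Sol. The groups were again separate, and the low libraries were the same ones as for Gsdmc4. The edgeR log2 fold change was 4.69 ± 0.53 in Mem (adjusted p = 0.00013) and 4.50 ± 0.52 in Mem+Sol (7.2e-05).

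Gsdmc3, the closest copy of Gsdmc2, stood at 37.3, 19.4, 30.9, 21.8 and 23.6 CPM in WT. It stood at 142, 531, 402, 494 and 594 CPM in Mem, and at 141 (lowest), 441 (median) and 654 CPM (highest) in Mem+Sol. No transgenic library overlapped a WT library. The edgeR log2 fold change was 3.91 ± 0.39 in Mem (adjusted p = 4.6e-05) and 3.60 ± 0.39 in Mem+Sol (5.1e-05).

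Gsdmc, the member at the far end of the row of copies, was near the limit of detection. The WT libraries held 4 counts in all, 3 of them in replicate 3, which gave 0, 0, 0.391, 0 and 0.0759 CPM. The Mem replicates held 0.295, 1.81, 0.681, 0.924 and 0.774 CPM, and Mem+Sol ran from 0.712 over a median of 1.10 to 1.28 CPM. Mem+Sol lay above all WT libraries, whereas Mem replicate 1 lay below WT replicate 3. The edgeR log2 fold change was 3.28 ± 0.72 in Mem (adjusted p = 0.0118) and 3.49 ± 0.72 in Mem+Sol (0.0024), and without Mem replicate 2 the Mem call was lost (0.0519). Without WT replicate 3 the differences were 4.82 and 5.01. The ratio of pooled counts per total counts was 12.6 in Mem (exact 95% interval 4.79 to 47.1, counting error only).

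The pseudogene Gsdmcl-ps stood at 0.482, 0, 0.261, 0.427 and 0.304 CPM in WT, from 15 counts in all. It stood at 3.05, 37.4, 17.2, 34.3 and 30.3 CPM in Mem, and at 3.50 (lowest), 20.2 (median) and 48.9 CPM (highest) in Mem+Sol. All transgenic libraries exceeded all WT libraries. Its log2 fold change of 6.13 ± 0.83 in Mem (edgeR adjusted p = 0.00046) and 5.81 ± 0.83 in Mem+Sol (0.00025) rests on few WT counts, and the pooled ratio was 87.7 (exact 95% interval 53.1 to 157) in Mem and 84.1 (50.9 to 150) in Mem+Sol.

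**Figure D1:**
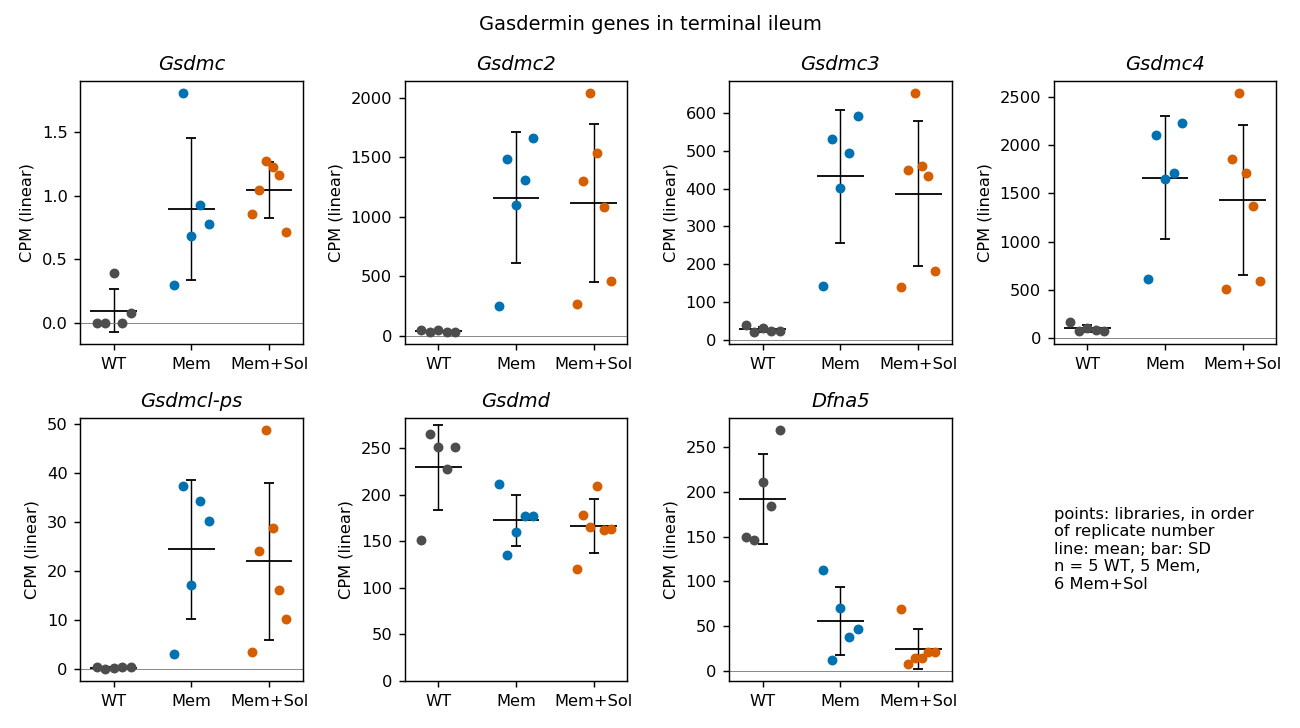
Levels of the 7 gasdermin rows in each ileum library, in CPM on linear axes that differ between panels; points are libraries in order of replicate number, lines are means and bars SD (5 WT, 5 Mem and 6 Mem+Sol libraries). Gsdmc2, Gsdmc3, Gsdmc4 and Gsdmcl-ps are separate from WT in both transgenic groups, and Dfna5 lies lower in every transgenic library than in any WT library.

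The sum of the 5 gasdermin C rows, which does not depend on how reads were split among these rows, held 0.0113 to 0.0259% of all counts in WT ileum. It held 0.0960 to 0.472% in Mem and 0.102 to 0.550% in Mem+Sol. The sum was 17.8-fold higher in Mem (log2 4.16 ± 0.44, edgeR adjusted p = 9.5e-05) and 14.5-fold higher in Mem+Sol (3.86 ± 0.44, 7.0e-05), and groups did not overlap. Between Mem+Sol and Mem the difference was -0.30 ± 0.38 (adjusted p = 0.734), and for the single gasdermin C rows it ran from -0.38 ± 0.34 for Gsdmc4 to 0.21 ± 0.45 for Gsdmc, none of them called. Both transgenic genotypes were set against the same WT libraries.

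The make-up of this sum also differed. Gsdmc2 gave 24.5 ± 2.45% of the gasdermin C counts of WT libraries (SD, n = 5), against 33.8 ± 5.11% for Mem (n = 5) and 36.4 ± 4.15% for Mem+Sol (n = 6). Its share rose by 9.27 percentage points in Mem (2-sided exact permutation test, p = 0.0317, adjusted over 10 shares 0.0454) and by 11.9 points in Mem+Sol (exact p = 0.0043, adjusted 0.0144). Mem+Sol shares of 28.8 to 41.0% did not overlap the WT shares of 20.3 to 26.7%, while Mem replicate 1, at 24.8%, lay within the WT range.

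Gsdmc4 made up 59.4 ± 3.50% in WT, 52.2 ± 5.0% in Mem and 49.2 ± 3.58% in Mem+Sol (exact permutation test, adjusted p = 0.0496 and 0.0144). Gsdmc3 made up 15.9 ± 1.33%, 13.3 ± 0.672% and 13.6 ± 1.42% (adjusted 0.0159 and 0.0454). Gsdmcl-ps made up 0.171 ± 0.113% in WT against 0.677 ± 0.269% in Mem and 0.686 ± 0.197% in Mem+Sol (adjusted 0.0159 and 0.0144). The share of Gsdmc did not pass the test in either genotype (adjusted 0.883 in both). Put as a ratio of counts, Gsdmc2 to Gsdmc4 was 0.312 to 0.470 in WT, 0.408 to 0.767 in Mem and 0.519 to 0.896 in Mem+Sol. Shares of one sum are not independent of each other. When the pseudogene was left out of the sum, 3 shares were called and the changes of Gsdmc2 and Gsdmc4 in Mem and of Gsdmc3 in Mem+Sol came to an adjusted p of 0.0529. The same 3 calls were lost without any one of Mem replicates 2 to 5, Mem+Sol replicates 2 to 4 or WT replicates 2 to 5, with adjusted p up to 0.0907, 0.0992 and 0.0833, and the first 2 of them also without WT replicate 1.

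**Figure D2:**
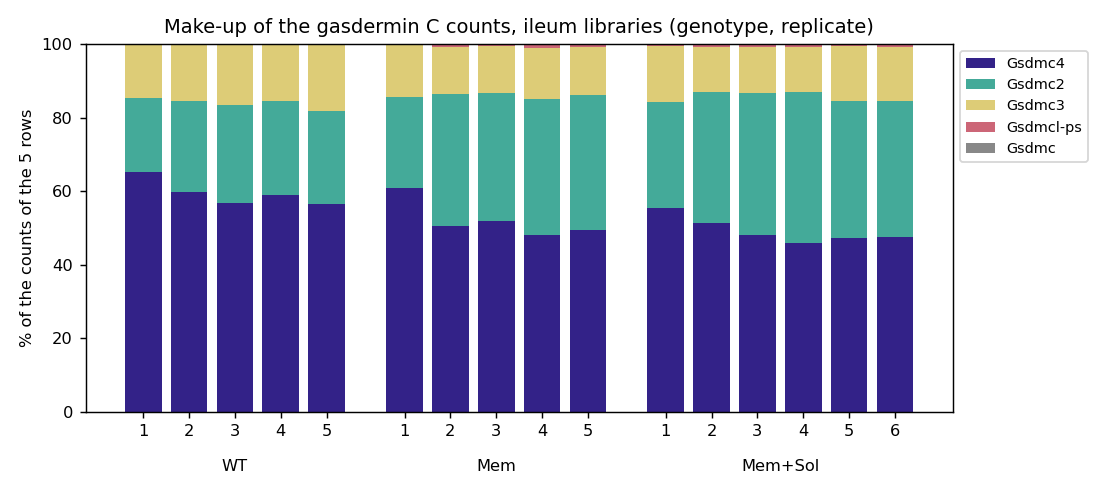
Share of each gasdermin C row in the summed gasdermin C counts of each ileum library, in percent; bars are libraries, grouped by genotype and numbered by replicate. The Gsdmc2 part is wider in the transgenic libraries (mean 33.8% in Mem and 36.4% in Mem+Sol against 24.5% in WT) except in Mem replicate 1, where it is 24.8%.

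Of the other gasdermins, Dfna5 moved the other way in the ileum. WT libraries held 149, 147, 211, 184 and 270 CPM. Mem libraries held 113, 11.8, 70.4, 37.8 and 46.7 CPM, and Mem+Sol libraries held 7.15 (lowest), 17.6 (median) and 68.8 CPM (highest). Every transgenic library was below every WT library, and replicate 1 held the highest level in both transgenic groups. Dfna5 fell in Mem+Sol by 2.89 ± 0.52 on the log2 scale (edgeR adjusted p = 0.0010), and by 3.55 without Mem+Sol replicate 1. In Mem the difference was -1.61 ± 0.54 and did not pass the threshold (adjusted p = 0.0773), although it did with DESeq2 (0.0191), without Mem replicate 1 (0.0363) and without Mem+Sol replicate 1 (0.0260). Mem+Sol differed from Mem by -1.28 ± 0.50 (adjusted p = 0.388).

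Gsdmd, the substrate of the inflammatory caspases, stood at 152, 265, 252, 228 and 251 CPM in WT ileum. It stood at 211, 136, 161, 177 and 178 CPM in Mem, and at 120 (lowest), 164 (median) and 209 CPM (highest) in Mem+Sol. WT replicate 1 lay among the transgenic libraries and the groups overlapped. The edgeR log2 difference was -0.37 ± 0.18 in Mem (adjusted p = 0.220) and -0.41 ± 0.18 in Mem+Sol (0.0955). Without WT replicate 1 the Mem+Sol difference was -0.60 ± 0.18 and passed the threshold (0.0279), as it did with no sex term (-0.46, 0.0444). WT replicate 1 is the 1 female among the 5 WT ileum libraries.

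**Figure D3:**
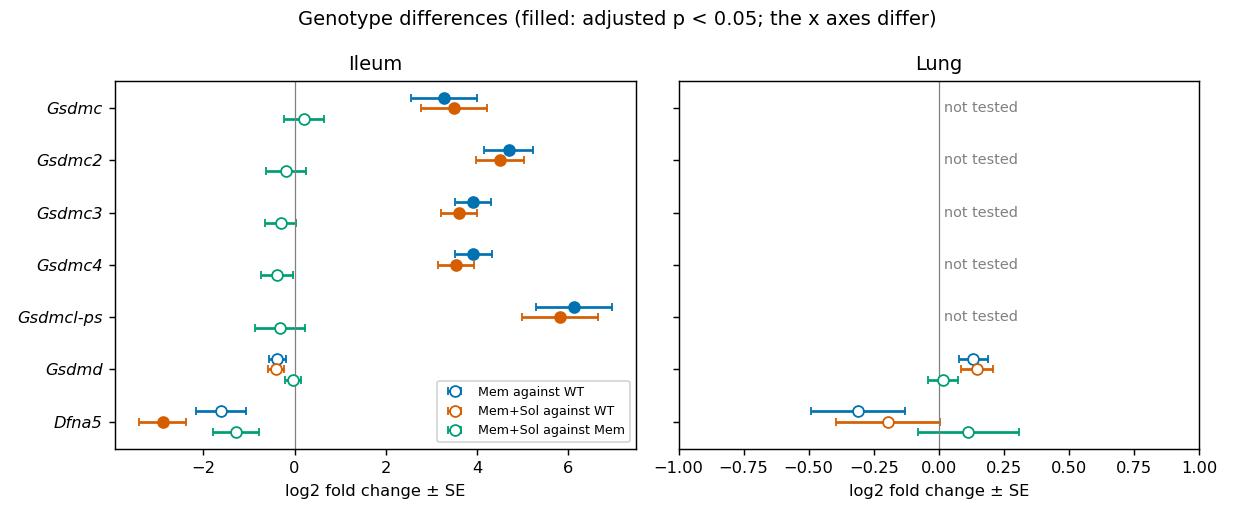
Log2 fold change with SE for each gasdermin row in the 3 genotype comparisons of each tissue; filled points passed an adjusted p of 0.05 (edgeR), and the 2 panels have different x axes. In the ileum the 5 gasdermin C rows lie between 3.28 and 6.13 in both comparisons with WT and near 0 between the transgenic genotypes, and in the lung only Gsdmd and Dfna5 were tested and neither was called.

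In the transgenic groups, the libraries lowest in gasdermin C were among the highest in Dfna5, and the order was not kept in the rest. Mem replicate 1 had a gasdermin C sum of 1003 CPM against 3169 to 4510 CPM in the other Mem libraries, and its 113 CPM of Dfna5 was the highest of the group. Mem+Sol replicate 1 had 923 CPM of gasdermin C and 68.8 CPM of Dfna5. Mem+Sol replicate 6, with 1253 CPM of gasdermin C, had 21.5 CPM of Dfna5, which was the next highest of its group. Mem replicate 5, with the highest gasdermin C sum of its group at 4510 CPM, had more Dfna5 (46.7 CPM) than replicates 2 and 4. Mem+Sol replicate 3, the highest of its group at 5282 CPM, had 14.0 CPM of Dfna5 against 7.15 CPM in replicate 2 at 3630 CPM. In WT, replicate 2 was lowest in both, at 125 and 147 CPM. Genotype separates the libraries into clusters, so no correlation is given.

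**Figure D4:**
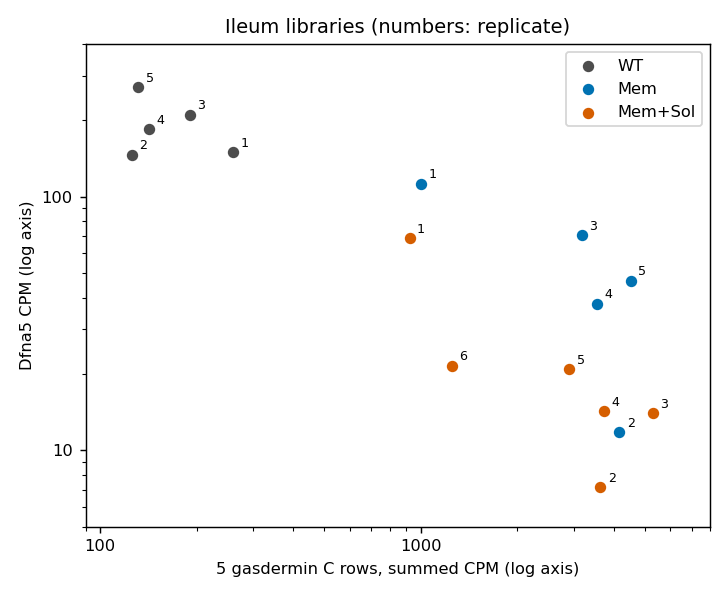
Summed gasdermin C level (x axis) against Dfna5 level (y axis) in each ileum library, both in CPM on log axes; colours are genotypes and numbers are replicates. WT libraries sit at 125 to 259 CPM of gasdermin C and 147 to 270 CPM of Dfna5, and replicate 1 of Mem and of Mem+Sol are the transgenic libraries nearest to them.

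Markers of several cell types moved in the same libraries. The counts of ileum markers called, here and in the next paragraphs, stand against the shares of all genes tested. These were 5.0% higher and 3.06% lower in Mem, and 16.6% higher and 12.1% lower in Mem+Sol. All 6 tuft cell markers were called higher in both transgenic ileum groups, with a summed level of 42.5 to 73.3 CPM in WT, 135 to 529 in Mem and 238 to 509 in Mem+Sol. Mem replicate 1 was the lowest Mem library at 135 CPM, whereas Mem+Sol replicate 1 was among the higher ones of its group at 468 CPM. The ileal enterocyte markers had 0 of 6 higher and 1 lower in Mem and 0 higher and 5 lower in Mem+Sol. Their sum ran from 5934 to 8595 CPM in WT, 759 to 4379 in Mem and 239 to 1484 in Mem+Sol, and replicate 1 was the highest library of both transgenic groups.

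The goblet cell markers had 2 of 6 higher and 2 lower in Mem and 1 higher and 2 lower in Mem+Sol. Their sum was 14909 to 19376 CPM in WT, 14646 to 26077 in Mem and 10546 to 28501 in Mem+Sol. Mem replicates 2 to 5 lay above every WT library, and replicate 1 was the lowest of both transgenic groups. The general epithelial markers summed to 13576 to 17596 CPM in WT, 9435 to 14691 in Mem and 8082 to 15774 in Mem+Sol, with 1 of 8 higher and 2 lower in Mem and 1 higher and 3 lower in Mem+Sol. Smooth muscle markers, 4 of 6 higher in Mem and 6 of 6 in Mem+Sol, summed to 2015 to 4516 CPM in WT, 7155 to 12230 in Mem and 10284 to 49169 in Mem+Sol. No marker of these 5 lists was at 0 in all libraries of an ileum group, and their part in the gasdermin differences was not tested.

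Enterocyte markers shared along the gut had 0 of 8 higher and 1 lower in Mem and 0 higher and 5 lower in Mem+Sol. Eosinophil markers had 2 of 3 tested higher in both groups, with sums of 4.92 to 10.1 CPM in WT, 16.5 to 65.3 in Mem and 33.2 to 86.2 in Mem+Sol. Pan-leukocyte markers had 0 of 5 called in Mem and 1 higher and 1 lower in Mem+Sol, with sums of 84.1 to 175, 105 to 134 and 77.5 to 181 CPM. Markers of tissues that a gut sample could include by position were also read. Colon epithelium markers had 1 of 3 tested lower in Mem and 3 of 3 in Mem+Sol, and their sum lay at 199 to 326 CPM in WT, 89.1 to 192 in Mem and 45.0 to 122 in Mem+Sol, with Hoxb13 at 0 in WT and Aqp8 at 0 in Mem. Squamous epithelium markers had 0 of 2 tested called and summed to 6.27 to 9.19, 7.03 to 9.24 and 6.41 to 17.4 CPM.

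Counts per transcript length put the members in an order, which is uncertain for the gasdermin C rows. Of the 50-base stretches of Gsdmc4, Gsdmc3 and Gsdmc2, 39.0 to 48.5% are shared with other genes, against none in Gsdmd and Dfna5. How reads from shared stretches were counted is not given, so levels of these rows may be too low or too high beside Gsdmd and Dfna5. In WT ileum the mean levels in CPM per kilobase of transcript were 128 ± 25.4 for Gsdmd, 76.8 ± 20.3 for Dfna5, 48.9 ± 19.1 for Gsdmc4, 18.9 ± 4.70 for Gsdmc2 and 12.2 ± 3.38 for Gsdmc3 (SD, n = 5). Gsdmcl-ps and Gsdmc were below these, at 0.153 and 0.0388. Gsdmd overlapped Dfna5, Dfna5 overlapped Gsdmc4 and Gsdmc2 overlapped Gsdmc3, while Gsdmc4 and Gsdmc2 did not overlap.

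In the transgenic ileum Gsdmc4, Gsdmc2 and Gsdmc3 had means above that of Gsdmd, with the same limit from shared stretches. In Mem the levels per kilobase were 796 ± 305 for Gsdmc4, 537 ± 255 for Gsdmc2, 198 ± 81.1 for Gsdmc3, 96.3 ± 15.4 for Gsdmd and 22.3 ± 15.2 for Dfna5 (SD, n = 5). In Mem+Sol they were 686 ± 374, 516 ± 308, 177 ± 88.3, 92.9 ± 16.1 and 9.77 ± 8.93 (n = 6). The ranges of Gsdmc4, Gsdmc2 and Gsdmc3 overlapped their neighbours', and Gsdmc3 overlapped Gsdmd in both groups. Dfna5 lay below Gsdmd without overlap in both. Gsdmcl-ps, at 12.7 in Mem and 11.4 in Mem+Sol, overlapped Dfna5, and Gsdmc was lowest at 0.373 and 0.435.

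Among genes with a mean log2 CPM of at least 1, the nearest to each member over the 16 ileum libraries was found from the root mean square difference of centred log2 CPM values. Gsdmc3 and Gsdmc4 were nearest to each other at 0.149. The gene nearest to Gsdmc2 was Capn13, a calpain, at 0.287, ahead of Gsdmc3 at 0.417 and Gsdmc4 at 0.446. Apoh at 0.415 came next for Gsdmc3, and Gsdmc2 at 0.446 and Serpina3n at 0.453 next for Gsdmc4. Gsdmcl-ps was nearest to Gsdmc2 at 0.704, Capn13 at 0.776 and Pla2g4c at 0.797. Gsdmc was nearest to Rgs13 at 0.504, Matk at 0.513 and Ffar3 at 0.525. For Dfna5 these genes were Naaladl1 at 0.448, Abcb1a at 0.464 and 1700011H14Rik at 0.538, and for Gsdmd Mpi at 0.135, Wwp2 at 0.152 and Rab8a at 0.157. These values describe the same libraries and genotype differences as above. Gsdmc itself lay below the level asked of the genes set beside it. Over the WT libraries Gsdmc held 4 counts and Gsdmcl-ps 15, so the genes nearest to these rows are uncertain.

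In the lung the gasdermin C genes were barely detected. All 5 rows together held 1 to 36 counts per WT library, 1 to 27 per Mem library and 0 to 5 per Mem+Sol library, and none passed the filter on low counts. WT replicate 4 and Mem replicate 4, both of batch 1, held most of them: 11 counts of Gsdmc2, 6 of Gsdmc3 and 18 of Gsdmc4 in the former and 10, 6 and 11 in the latter. Gsdmc had 0 counts over the Mem libraries and over the Mem+Sol libraries, which allows up to 0.0207 and 0.0237 CPM. No genotype difference was detectable for these rows at this depth.

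Gsdmd was the main gasdermin of the lung, at 28.1 ± 4.24 CPM per kilobase in WT, 30.6 ± 4.40 in Mem and 30.0 ± 4.23 in Mem+Sol (SD, n = 5, 5 and 4). Its levels were 43.4, 40.9, 54.3, 57.9 and 54.9 CPM in WT, 47.4, 45.3, 60.5, 58.8 and 62.2 CPM in Mem and 63.0, 56.7, 48.4 and 46.7 CPM in Mem+Sol. The groups overlapped, and within each genotype all batch 1 libraries (replicates 3 to 5 of WT and Mem, 1 and 2 of Mem+Sol) lay above all batch 2 libraries. With batch in the model the log2 difference from WT was 0.13 ± 0.06 in Mem (edgeR adjusted p = 0.148) and 0.15 ± 0.06 in Mem+Sol (0.248). Within batch 1 these were 0.15 and 0.12, and within batch 2 0.14 and 0.18, none of them called.

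Dfna5 was low in the lung, at 2.44, 1.33, 2.46, 2.65 and 2.45 CPM in WT, 1.25, 1.53, 2.41, 1.78 and 1.99 CPM in Mem and 1.72, 2.10, 1.96 and 1.51 CPM in Mem+Sol. The groups overlapped, with WT replicate 2 among the lowest libraries. The log2 difference from WT was -0.31 ± 0.18 in Mem (edgeR adjusted p = 0.289) and -0.20 ± 0.20 in Mem+Sol (0.647), and within batches it was -0.21 and -0.27 in batch 1 and -0.45 and -0.12 in batch 2. Of the 2 members tested in the lung, 0 were called in Mem against WT, Mem+Sol against WT or Mem+Sol against Mem, where 9.46, 0.844 and 2.23% of 15885 genes were called (6.41, 0.523 and 0.862% higher and 3.05, 0.321 and 1.37% lower). At an unadjusted p under 0.05, Gsdmd passed in both comparisons with WT and Dfna5 in none. Between Mem+Sol and Mem the differences were 0.02 ± 0.06 for Gsdmd (adjusted p = 0.932) and 0.11 ± 0.19 for Dfna5 (0.826). DESeq2 called 0 of the 2 in each comparison as well. Goblet cell markers moved in the same lungs, with 4 of 5 tested higher in Mem and 1 in Mem+Sol and sums of 8.69 to 18.7 CPM in WT, 283 to 1446 in Mem and 85.5 to 238 in Mem+Sol, and their part in the gasdermin values was not tested.

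The genes nearest to Gsdmd over the 14 lung libraries, by the same measure, were Bccip at 0.0512, Tsnax at 0.0590 and Drg1 at 0.0599. Those nearest to Dfna5 were Slc40a1 at 0.171, Slfn1 at 0.183 and Fdxacb1 at 0.200. The levels compared were not corrected for sequencing batch, and Gsdmd differed between batches within every genotype. The part of batch in these values was not tested.

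**Figure D5:**
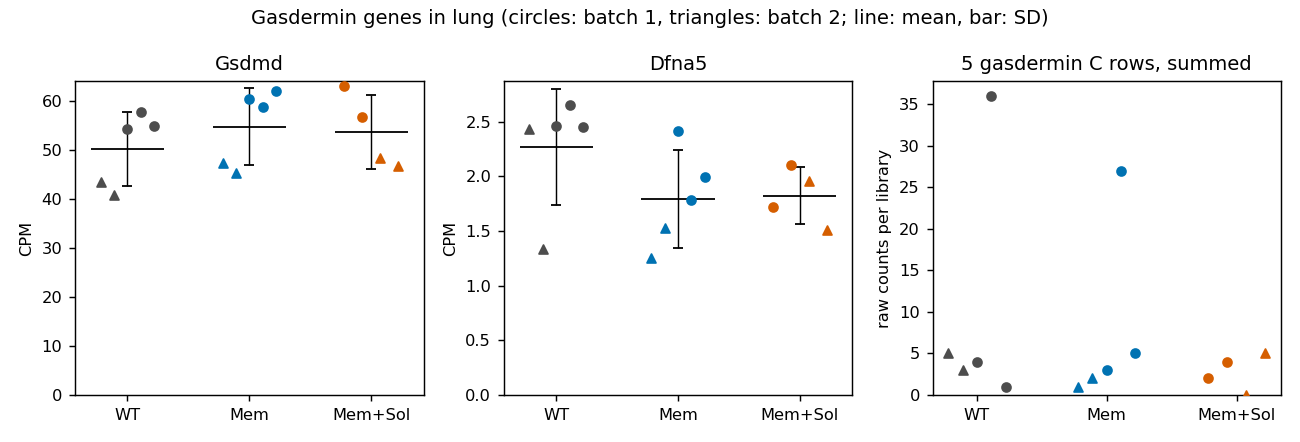
Gsdmd and Dfna5 in CPM (line, mean; bar, SD) and the raw counts of the 5 gasdermin C rows summed, in each lung library by genotype; circles are batch 1 and triangles batch 2. Gsdmd is higher in batch 1 than in batch 2 within every genotype, and the gasdermin C counts are at most 5 per library except in WT replicate 4 (36) and Mem replicate 4 (27).

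The genotype effects were compared between tissues in one model over 16867 genes, where 8.23% of all genes were called for the Mem effect (3.56% higher in lung and 4.67% lower) and 18.1% for the Mem+Sol effect (6.55% and 11.6%). Gsdmd and Dfna5 were the 2 members that passed the filter in both tissues, and of these 0 were called for the Mem effect and 1, Dfna5, for the Mem+Sol effect. The gasdermin C rows entered this model only through the ileum, where they are high. Gsdmc4 had 27 counts over the WT lungs, 17 over the Mem lungs and 5 over the Mem+Sol lungs, so its fitted differences, lung minus ileum, of -4.38 ± 1.04 in Mem and -5.26 ± 1.29 in Mem+Sol restate the ileum rise against a lung near 0 and are no measure of a lung response. The same holds for the gasdermin C sum, at -4.22 ± 1.09 and -5.19 ± 1.30, from 49, 38 and 11 lung counts.

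Dfna5 differed between tissues in Mem+Sol by 2.71 ± 0.68 (edgeR adjusted p = 0.0071), from the decrease in the ileum and a lung difference of -0.20. In Mem its tissue difference was 1.30 ± 0.66 (0.225). For Gsdmd the tissue differences of 0.50 ± 0.20 in Mem (0.112) and 0.57 ± 0.21 in Mem+Sol (0.0558) did not pass the threshold. The Mem difference passed without ileum Mem replicate 1 (0.0432) or ileum WT replicate 1 (0.0225). The Mem+Sol difference passed with DESeq2 (0.0432), with no sex term (0.0267) and without ileum WT replicate 1 (0.0077), ileum Mem replicate 1 (0.0384) or ileum Mem+Sol replicate 2 (0.0440) or 4 (0.0353). No tissue difference is given for Gsdmc, Gsdmc2, Gsdmc3 and Gsdmcl-ps singly, since each had 3 or fewer counts in at least 1 lung group.

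Proteases of the family that cuts gasdermins were read from a list of 9 caspases. The counts of this list and of those below stand against the shares of all genes called. In the ileum these were 5.0% higher and 3.06% lower in Mem, and 16.6% and 12.1% in Mem+Sol. In the lung they were 6.41% and 3.05% in Mem, and 0.523% and 0.321% in Mem+Sol. In Mem+Sol ileum 3 rose and 5 fell, with a median log2 difference of -0.74, against 0.01 over all genes tested. Casp1, which encodes the protease that activates gasdermin D and IL-1 family cytokines, fell from 142 ± 30.0 CPM (SD, n = 5) to 70.2 ± 15.9 (n = 6), by 1.08 ± 0.19 on the log2 scale (edgeR adjusted p = 0.00076). Casp4, which encodes the sensor protease for cytosolic lipopolysaccharide, fell by 1.44 ± 0.31 (0.0029), and Casp9, the initiator of the mitochondrial pathway of apoptosis, by 0.76 ± 0.16 (0.0031). Casp12 rose by 1.68 ± 0.29 (0.00081).

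Casp8, whose product is reported to cut gasdermin C, had a log2 difference of -0.88 ± 0.27 in Mem+Sol ileum (edgeR adjusted p = 0.0220). This value was chosen after it was seen, and the call was lost without WT replicate 4 (0.0569). In Mem ileum 3 of 9 caspases rose and 2 fell, with a median of -0.39 against 0.00 over all genes. These included Casp12 at 1.21 ± 0.30 (0.0207), Casp9 at -0.64 ± 0.17 (0.0293) and Casp6 at 0.60 ± 0.17 (0.0356). The Casp12 call was lost without Mem replicate 2 or 4 or WT replicate 4, and that of Casp9 without any one of Mem replicates 2 to 5 or WT replicates 1, 2 and 4. The Casp6 call was lost without any one of Mem replicates 2 to 5 or of the WT replicates, with adjusted p up to 0.147.

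In the lung both caspase genes of gasdermin D rose in Mem. Casp1 rose in Mem lung from 11.9 ± 1.60 to 17.1 ± 1.83 CPM (SD, n = 5 each; log2 0.53 ± 0.08, edgeR adjusted p = 0.0015) and Casp4 by 0.52 ± 0.08 (0.0015), and in the list 3 of 9 rose and 0 fell (median 0.15, against -0.02 over all genes). Within batch 2 alone the differences were 0.63 for Casp1 (0.109) and 0.49 for Casp4 (0.127), neither of them called. In Mem+Sol lung 1 rose, Casp1 by 0.50 ± 0.09 (0.0228), against a list median of 0.08. That call was lost without Mem+Sol replicate 4 (0.174), WT replicate 2 (0.118) or WT replicate 5 (0.0840), and in batch 1 alone (0.58, 0.377). Gsdmd did not pass the test in these libraries.

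Sensors and adaptors that activate inflammatory caspases showed 1 of 14 higher and 5 lower in Mem+Sol ileum (median -0.50) and 0 called in Mem ileum by edgeR (median -0.28), where 3 had an unadjusted p under 0.05. Naip5, a receptor for bacterial flagellin, fell by 1.10 ± 0.20 (edgeR adjusted p = 0.0010) and Naip2 by 0.86 ± 0.23 (0.0099). Nlrp6, a sensor of the intestinal epithelium, fell by 1.10 ± 0.30 (0.0122), and that call was lost without WT replicate 1 (0.0503). Nek7, a partner of the NLRP3 sensor, rose by 0.76 ± 0.20 (0.0101). In Mem lung 1 of 12 tested was higher, the adaptor Pycard at 0.57 ± 0.09 (0.0015), which in batch 2 alone was 0.46 (0.131). In Mem+Sol lung 0 were called, and 2 had an unadjusted p under 0.05.

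A list of 7 genes held those of proteins that can leave cells through gasdermin pores or after lysis, together with the antagonist genes Il1rn and Il18bp. Its counts and medians are therefore not those of released cytokines alone. In Mem+Sol ileum Il18 fell by 1.49 ± 0.32 (edgeR adjusted p = 0.0028), and the receptor antagonist gene Il1rn rose by 2.94 ± 0.65 (0.0035) and the alarmin gene Il33 by 2.20 ± 0.70 (0.0272), so that 2 rose and 1 fell (median 0.94). Without Mem+Sol replicate 4 the Il1rn difference was 1.81. In Mem ileum Il33 rose by 2.37 ± 0.66 (0.0352) and Il18 fell by 1.12 ± 0.31 (0.0383), with a list median of -0.08. The Mem call of Il33 was lost without any one of Mem replicates 2, 4 and 5 or of the 5 WT replicates (adjusted p up to 0.180), and without Mem replicate 2 the difference was 1.59, and the Mem+Sol call without Mem+Sol replicate 4 or WT replicate 1 or 4 (up to 0.0980). The Mem call of Il18 was lost without any one of Mem replicates 2 to 5 or WT replicates 2, 4 and 5 (up to 0.129).

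In Mem lung Il33 rose from 125 ± 17.5 to 227 ± 49.7 CPM (SD, n = 5 each; log2 0.75 ± 0.14, edgeR adjusted p = 0.0043), and between Mem+Sol and Mem lung it differed by -0.78 ± 0.15 (0.0223). In batch 2 alone the first difference was 0.46 (0.343), and in batch 1 alone the second was -0.76 (0.170), neither of them called. The second call was also lost without Mem replicate 2 or Mem+Sol replicate 3 or 4 (up to 0.0745). No other gene of this list was called in the lung comparisons.

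Of 7 tested genes for membrane rupture, repair and granule proteases, 1 rose and 2 fell in Mem+Sol ileum (median -0.02). Over all genes, 16.6% were called higher and 12.1% lower there. Ninj1, which encodes the protein that ruptures the plasma membrane after gasdermin pores have formed, rose from 17.0 ± 1.25 CPM (SD, n = 5) to 25.5 ± 2.73 (n = 6), by 0.57 ± 0.13 (edgeR adjusted p = 0.0049). The granzyme genes Gzmb and Gzma fell by 2.68 ± 0.50 (0.0013) and 2.66 ± 0.60 (0.0040). In Mem ileum 0 rose and the same 2 granzyme genes fell, Gzmb by 2.42 ± 0.52 (0.0111) and Gzma by 2.49 ± 0.62 (0.0234), the latter call being lost without any one of Mem replicates 2 to 5 or WT replicates 1 and 3, with adjusted p up to 0.0638. In the lung edgeR called 0 of 7. Of these, 3 in Mem and 0 in Mem+Sol had an unadjusted p under 0.05, with no share of all genes given beside it.

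Interferon regulators and guanylate-binding proteins, which act on gasdermin D expression and on its activation, had 0 of 7 called in either ileum comparison with WT (medians -0.25 and 0.00) and 0 of 7 in the lung (0.08 and -0.05). Among these only 1 gene, in Mem+Sol ileum, had an unadjusted p under 0.05. The other gasdermins, Gsdma, Gsdma2, Gsdma3 and Dfnb59, summed to at most 2.59 CPM in any ileum library and 0.265 CPM in any lung library. Of these 4, 2 passed the filter in the ileum and 0 were called, while 1 had an unadjusted p under 0.05 in each comparison with WT.

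The list of IL-4 and IL-13 signalling genes had 3 of 14 higher and 0 lower in Mem ileum (median 0.45). Over all genes, 5.0% were called higher and 3.06% lower there. In Mem+Sol ileum the list had 5 higher and 1 lower (median 0.35), where the shares over all genes were 16.6% and 12.1%. Not all genes of this list lie upstream of gasdermin C induction, since it also holds Il5 and a decoy receptor gene. The 3 called in Mem were Il13ra2, Il5 and Il13, with no kinase gene and not Stat6 among them. Il13ra2, which encodes a decoy receptor for IL-13, had 2 counts over the WT libraries and 383 over Mem and 718 over Mem+Sol, a pooled ratio of 84.0 (exact 95% interval 23.1 to 696) and 128 (35.2 to 1057). Il5 had 3 WT counts, 118 in Mem and 129 in Mem+Sol, a pooled ratio of 17.3 (5.76 to 84.9) and 15.3 (5.12 to 75.2). Il13 had 4 WT counts, 269 in Mem+Sol and 340 in Mem, of which 275 were in Mem replicate 2. The Mem log2 difference was 4.59 ± 1.35 (edgeR adjusted p = 0.0460), and 2.74 without that library. The call was lost without any one of Mem replicates 2 and 4, Mem+Sol replicates 2 to 5 or the 5 WT replicates (up to 0.209). The Il5 calls (0.0339 and 0.0209) were lost without any one of Mem replicates 2 and 4 or WT replicates 1, 2, 4 and 5 in Mem (up to 0.133), and without WT replicate 1 in Mem+Sol (0.0707). Mem replicate 2 held 70 of the 118 Mem counts of Il5, and without it the log2 difference was 2.79 in place of 3.61.

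Tyk2, a kinase of cytokine receptors, fell in Mem+Sol ileum by 0.71 ± 0.19 (edgeR adjusted p = 0.0118), and Il25, the tuft cell cytokine gene, rose by 1.95 ± 0.51 (0.0095). In the lung 1 of 11 was higher in Mem, Socs1 at 0.83 ± 0.20 (0.0178), lost without Mem replicate 3 or WT replicate 5, with adjusted p up to 0.0833, and in batch 2 alone (0.57, 0.239). In Mem+Sol lung 0 were called, and 1 had an unadjusted p under 0.05.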

How the data were processed

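The analysis started from the raw read counts per gene that the authors deposited, in one table per tissue. The submitters' processing notes name CASAVA, TopHat2 and the mm10 assembly. Sources used here do not give their versions, the counting tool, the annotation, the strand setting or the treatment of reads with several matches. Per the labels' protocols, poly-A RNA of homogenized tissue was sequenced in 3 batches.

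Members and gene lists were chosen with earlier results of these data known. All genes passing filterByExpr were tested with edgeR 4.0.16 (R 4.3.3; trimmed mean of M-values, robust quasi-likelihood, Benjamini-Hochberg adjustment over all genes tested, threshold 0.05). The ileum model held genotype and sex, the lung model also batch, and 1 model over both tissues gave the tissue differences. Residual degrees of freedom were 12, 9 and 21. CPM used TMM-scaled library sizes. The procedure was tested on simulated counts for Mem against WT. In the ileum, 47.5% of genes changed by 1 on the log2 scale were rightly called, and 90% of those changed by 2. In the lung these were 86 and 100%. False calls made up 4.86% of calls in the ileum and 6.53% in the lung. Shares of the gasdermin C sum were compared with exact permutation tests (scipy 1.17.1; 252 arrangements for Mem, 462 for Mem+Sol). Intervals cover counting error only, and 0 counts were taken to allow 3.

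All members were named, with up to 4 called genes per list and comparison by smallest adjusted p (1 gene is counted in its list but not reported here), the 3 genes most alike to each member, and Tnfsf15. Alternatives were DESeq2 1.42.0, relative log expression factors, keeping every gene with at least 1 count, leaving out the sex term, fitting 2 genotypes at a time, a replicate block, each library left out, in the lung no batch term and each batch alone, and in the ileum thinning to the smallest total. Positions and sequences are from GENCODE M21 (GRCm38, the same assembly as mm10), with coding sequences aligned in Biopython 1.88. Of 131 list symbols, 131 matched both tables.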

Additional observations from a re-analysis of the deposited data

Results flagged for a closer look

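There were 39 sets of values, each of 1 member in the libraries of 1 tissue and genotype. Of these, 12 held a library set apart from the others by Dixon's criterion at the 95% level. Chance sets apart about 1 in 20 only where values are normally spread. Where 1 library holds counts and the others hold 0, the criterion always sets it apart. The 12 are therefore no measure of an excess over that rate. In Mem+Sol ileum, replicate 1 held 68.8 CPM of Dfna5 against 7.15 to 21.5 in the others. In WT ileum, replicate 3 held 0.391 CPM of Gsdmc, from 3 counts. In WT lung, replicate 2 held 1.33 CPM of Dfna5 against 2.44 to 2.65 in the others.

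Another 9 sets were lung sets of gasdermin C rows with at most 18 counts in a library. In WT lung replicate 4 stood apart for Gsdmc (0.0368 CPM, 1 count), Gsdmc2 (0.405), Gsdmc3 (0.221) and Gsdmc4 (0.663). In Mem lung replicate 4 stood apart for Gsdmc2 (0.445), Gsdmc3 (0.267) and Gsdmc4 (0.489), and replicate 5 for Gsdmcl-ps (0.109, 3 counts). In Mem+Sol lung replicate 4 stood apart for Gsdmc3 (0.0941, 3 counts).

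The genotype effect on Dfna5 in Mem+Sol differed between tissues, lung minus ileum on the log2 scale, by 2.71. The fitted differences for Gsdmc4 (-4.38 in Mem, -5.26 in Mem+Sol) and the gasdermin C sum (-4.22 and -5.19) come from rows that did not pass the filter on low counts in the lung, with 49, 38 and 11 lung counts of the sum over WT, Mem and Mem+Sol, and measure no lung response.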

How the results depend on the processing

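In the ileum, 4 to 6 members were called in Mem against WT, 5 to 7 in Mem+Sol against WT and 0 in Mem+Sol against Mem over 23 alternatives, and in the lung 0 in each comparison. These counts include Gsdmc and Gsdmcl-ps, which are near 0 in WT ileum. The share of all genes called in each alternative is not given here. The counts therefore show only how far the member calls held. The gasdermin C sum stayed past the threshold against WT in all of them, at 3.90 to 4.38 in Mem and 3.47 to 4.07 in Mem+Sol when 1 library was left out. After thinning to the smallest ileum total, Gsdmc had too few counts to be tested, and 4 and 5 members were called. Whether same-numbered libraries pair was not decided, since no such correlations are given for differently numbered libraries. Residual correlations of same-numbered libraries lay between -0.350 and 0.552 for ileum, where 8 among 15 exceeded 0.1. For lung they lay between -0.317 and 0.354, where 5 among 13 did. With the replicate block, 6 members were called in each ileum comparison with WT, Dfna5 in Mem at -1.90 (adjusted p = 0.0113) among them. Of the other named genes, the block ended the Mem+Sol ileum calls of Nek7 (0.0727), Gzma (0.0539) and Il25 (0.0510) and, in the lung, those of Casp1, Il33 and Socs1.

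Members called for the tissue difference, gasdermin C rows near 0 in the lung included, numbered 1 in Mem and 2 in Mem+Sol, but 4 in Mem and 6 in Mem+Sol with DESeq2, and 4 in Mem+Sol with no sex term. Leaving out 1 library gave 0 to 2 in Mem and 2 to 3 in Mem+Sol. The sum's difference in Mem then ran from -5.60 to -2.98, not called without lung Mem replicate 3 (0.195) or WT replicate 4 (0.129). Apart from Dfna5 and Gsdmd, these calls come from rows that did not pass the filter on low counts in the lung. Such calls, and those of the sum, measure no lung response. The share of all genes called in each alternative is not given, so the counts do not compare DESeq2 with edgeR. The Mem+Sol difference of Dfna5 ran from 2.54 to 3.37 and was called in all 36 alternatives. Of the shares, 8 were called, 3 without Gsdmcl-ps and 5 to 8 when 1 library was left out. The causes were not tested.

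Differences near 0 changed sign. In lung Mem+Sol against Mem, Gsdmd was -0.0356 with no batch term and -0.0311 in batch 1 alone, and Dfna5 -0.0598 in batch 1 alone. With 1 library left out, Gsdmd ran from -0.00799 to 0.0505 and Dfna5 from -0.0143 to 0.203 there. In ileum Mem+Sol against Mem, Gsdmd ran from -0.119 to 0.0702 and Gsdmc2 from -0.604 to 0.0370. The share of Gsdmc ran from -0.0382 to 0.0131 points in Mem and from -0.0198 to 0.0315 in Mem+Sol. Depth limited Gsdmc and Gsdmcl-ps in WT ileum and all gasdermin C rows in the lung.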
